A study of Mus musculus with 48 samples.

Results

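Livers of male wild-type mice were compared on day 9 and on day 7 of a lipopolysaccharide (LPS) experiment, in 3 libraries a day, all collected at Zeitgeber time 21 (ZT21). The 6 libraries were chosen by the day, treatment and time in their labels, out of 48 in the series. LPS, a cell wall component of Gram-negative bacteria, was given for 7 consecutive days, so day 7 was sampled during the course and day 9 after it had stopped. The labels do not say from which event days 9 and 11 were counted, nor the dose, the route or the strain of the mice. Beside these stood 3 libraries of untreated negative control (NC) livers of day 7 at ZT21, and LPS livers of days 3, 5 and 11 at ZT21, which entered the same fit. The 3 libraries of a group are termed biological replicates in the labels. Whether they stem from 3 animals is not stated, and p-values here measure only the spread between the libraries. The comparison asked which liver transcripts changed between the last days of LPS and the days after it.

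LPS is sensed in the liver by Kupffer cells and other cells that carry the receptor Tlr4 and its partner Cd14, and their cytokines make hepatocytes secrete acute-phase proteins. Hepatocytes are mostly out of the cell cycle and enter it after injury or on some receptor signals, when E2F factors switch on the genes of DNA replication and a later programme those of mitosis. The liver clock is a loop in which Arntl and Clock drive the Per, Cry and Nr1d genes that repress them, and it times many genes of lipid metabolism.

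Libraries held 29.9 to 36.4 M counts on day 7 and 33.7 to 34.1 M on day 9, and 16101 of the 29331 listed genes had enough counts to be tested. One day-7 library stood apart from the other 2 before any test. On the first principal component of the 18 ZT21 libraries, which held 24.8% of the variance, day 7 replicates 1 and 3 scored 53.4 and 59.2 and replicate 2 scored -16.5. The 3 day-9 libraries scored -26.1, -25.8 and -19.2 and the 3 NC libraries lay between -44.3 and -28.4. All pairs of day-9 libraries differed by more than counting noise, with a median chi-square per gene of 1.43 for replicates 1 and 2, 3.92 for 1 and 3 and 4.01 for 2 and 3, against 0.455 for noise. Pairs of NC libraries had 2.78 to 3.53 and pairs of day-7 libraries 4.89 to 9.17. Day 9 replicates 1 and 2 were thus the closest pair of these groups, and whether they are independent was not tested. Reads of mitochondrially encoded genes made up 7.88%, 9.71% and 7.35% of counts on day 7, in the order of the replicates, and 13%, 12.1% and 10.2% on day 9.

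On day 9, most tested genes of DNA replication and mitosis, and part of those of fatty acid synthesis and stellate cells, were lower than on day 7. Most mitochondrially encoded genes and part of the chaperones of the endoplasmic reticulum and of the histone genes were higher. Clock genes split, with the activators Arntl and Clock higher and Dbp, Nr1d2, Per3 and Ciart lower. With edgeR's quasi-likelihood test and p-values adjusted after Benjamini and Hochberg, at 0.05, 1084 of 16101 genes passed (6.73%), 425 higher on day 9 (2.64%) and 659 lower (4.09%). Changes are log2 of day 9 over day 7, negative where day 9 was lower, with a standard error derived from the F statistic of the test. Levels are CPM, counts scaled to equal library size, for replicates 1, 2 and 3 in that order. The median log2 change over all tested genes was -0.00272. The 3 day-9 libraries lay all above the 3 day-7 libraries in 1911 genes (11.9%) and all below in 1821 (11.3%).

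**Figure D1:**
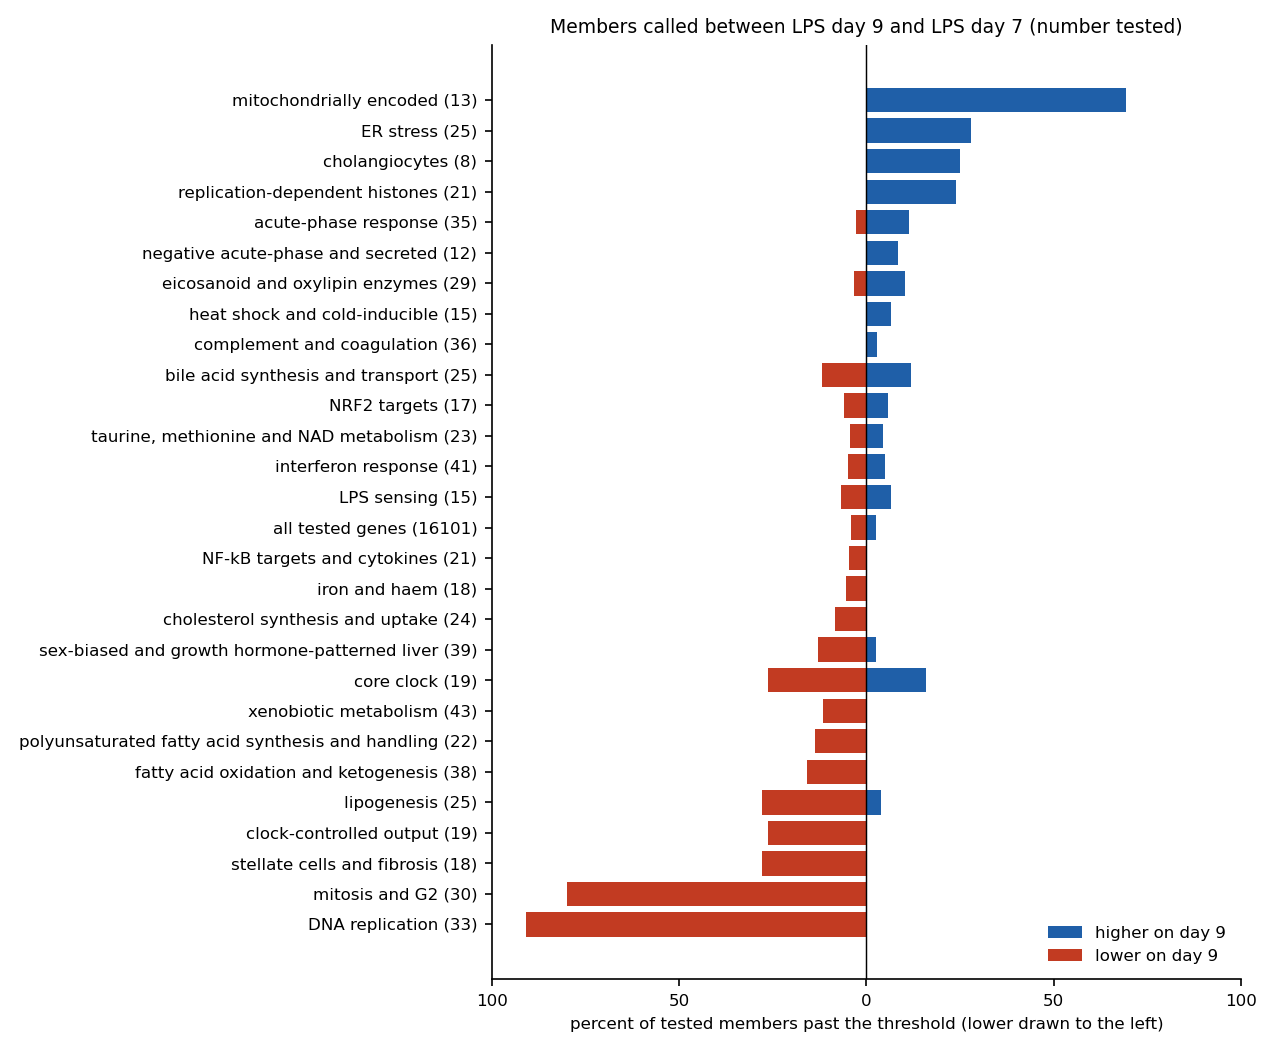
For each gene list with at least 1 member past the threshold, the bars give the percent of tested members higher on day 9 (blue, right) or lower (red, left), with the number tested in brackets and all tested genes as a row of their own. DNA replication (30 of 33 lower) and mitosis (24 of 30 lower) have the longest bars to the left and mitochondrially encoded genes (9 of 13 higher) the longest to the right.

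These calls turned on which day-7 and day-9 libraries were in the fit. Of the 659 genes that fell, day 7 replicate 2 was the lowest of its group in 609 (92.4%, against 37.8% of all genes), and of the 425 that rose it was the highest in 358 (84.2%, against 36.8%). The falls had a median log2 difference of -1.39 against the mean of replicates 1 and 3 and of -0.426 against replicate 2, and the rises 0.821 and 0.378. Without day 7 replicate 2 the count was 3090 of 16526 tested genes, 1512 higher and 1578 lower. Counts of list members from that fit, given below, stand against these larger shares. Without day 7 replicate 1 the count was 1, and without day 7 replicate 3 it was 82. Without day 9 replicates 1, 2 or 3, in that order, it was 9, 7 and 1010. With day 9 replicates 1 and 2, the closest pair, summed into 1 library it was 1. With only the 6 libraries in the fit, edgeR's test called 0 genes, with 2813 at an unadjusted p under 0.05, while DESeq2 on the 18 libraries called 1831. For Mcm5 and Fads2 calls moved more than sizes when 1 library was left out. Mcm5 stayed between -5.17 and -3.93 on the log2 scale over the 6 fits, with an adjusted p of at most 0.0727. Fads2 stayed between -2.32 and -1.68, with at most 0.0729. Sizes of other genes moved further, Arntl from 1.3 to 2.57 and Pdia3 from 0.746 to 1.43, and Mpo, from -2.02 to 0.412, changed sign. With day 7 replicate 2 alone, so without replicates 1 and 3, sizes shrank to -2.14 for Mcm5 and -0.58 for Fads2. Of the 1084 genes, 1 passed in all 6 fits that left out 1 of the 6 libraries. This was 0610030E20Rik, a gene known only by its clone name, at 23.9, 23.1 and 22.4 CPM on day 7 and 41.6, 41.7 and 41.8 CPM on day 9 (log2 change 0.85 ± 0.09, adjusted p = 0.0011). Chka, a choline kinase of phospholipid synthesis, Pced1a, the mitochondrial carrier Slc25a11 and the TGF-beta receptor Tgfbr2 passed in 5 of 6, and these 5 genes are named because of that. Chka read 45.2, 83.6 and 53.6 CPM on day 7 and 156, 161 and 163 CPM on day 9, and the groups did not overlap (1.398 ± 0.20, adjusted p = 0.00708). Tgfbr2 read 48.4, 31.3 and 42.4 CPM on day 7 and 18.7, 20.7 and 21.9 CPM on day 9, again without overlap (-0.996 ± 0.14, adjusted p = 0.00708).

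**Figure D2:**
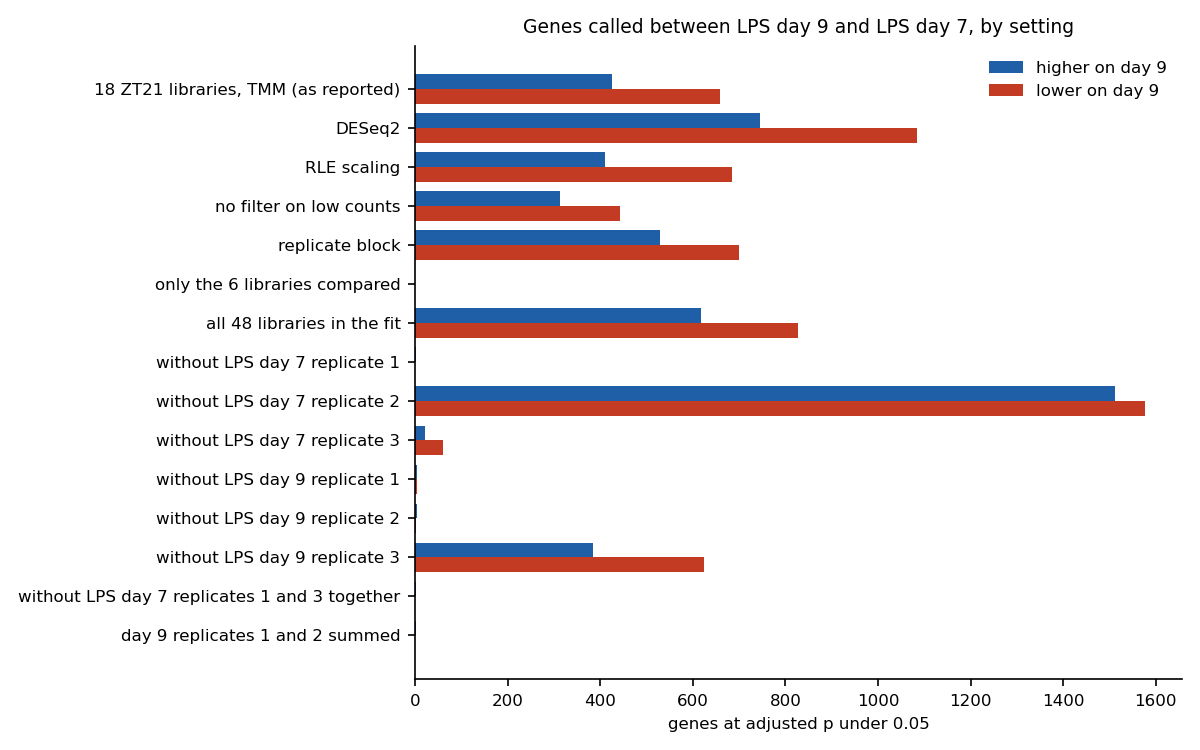
Bars count the genes higher (blue) and lower (red) on day 9 at an adjusted p under 0.05, with 1 row for each way of fitting. The fit reported here gave 425 and 659, the fit without day 7 replicate 2 gave 1512 and 1578, and the fits without day 7 replicate 1 and with only the 6 libraries gave 1 and 0 in all.

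Most tested genes of the cell cycle fell on day 9. Of 33 tested genes of DNA replication 30 fell and none rose, with a median log2 change of -2.45, and of 30 genes of mitosis and G2 24 fell and none rose, with a median of -3.45. The mean log2 CPM of the replication list was 4.91, 2.46 and 4.30 in day 7 replicates 1, 2 and 3, against 1.68, 1.60 and 1.67 on day 9 and 2.34, 1.72 and 1.79 in NC. That of the mitosis list was 2.93, 0.0025 and 2.77 on day 7 and -0.915, -1.11 and -1.10 on day 9. Replicates 1 and 3 of day 7 were thus far above every day-9 and NC library, and replicate 2 lay much nearer to them. Without day 7 replicate 1 or day 9 replicate 2 none of the members of these lists passed. Without day 7 replicate 3, 12 and 4 passed, without day 9 replicate 1, 1 and 1, without day 9 replicate 3, 26 and 14, and without day 7 replicate 2, 32 and 30 fell. Markers of T, NK and B cells, which also divide, summed to 25.94 to 50.83 CPM on day 7 and 24.04 to 30.65 CPM on day 9. By edgeR's test 0 of 23 passed. DESeq2 called 3, and 3 had an unadjusted p under 0.05, as had 3921 of all 16101 tested genes by edgeR's test. Their part in the fall was not tested, and in bulk liver fewer cells of a type cannot be told apart from less RNA per cell.

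**Figure D3:**
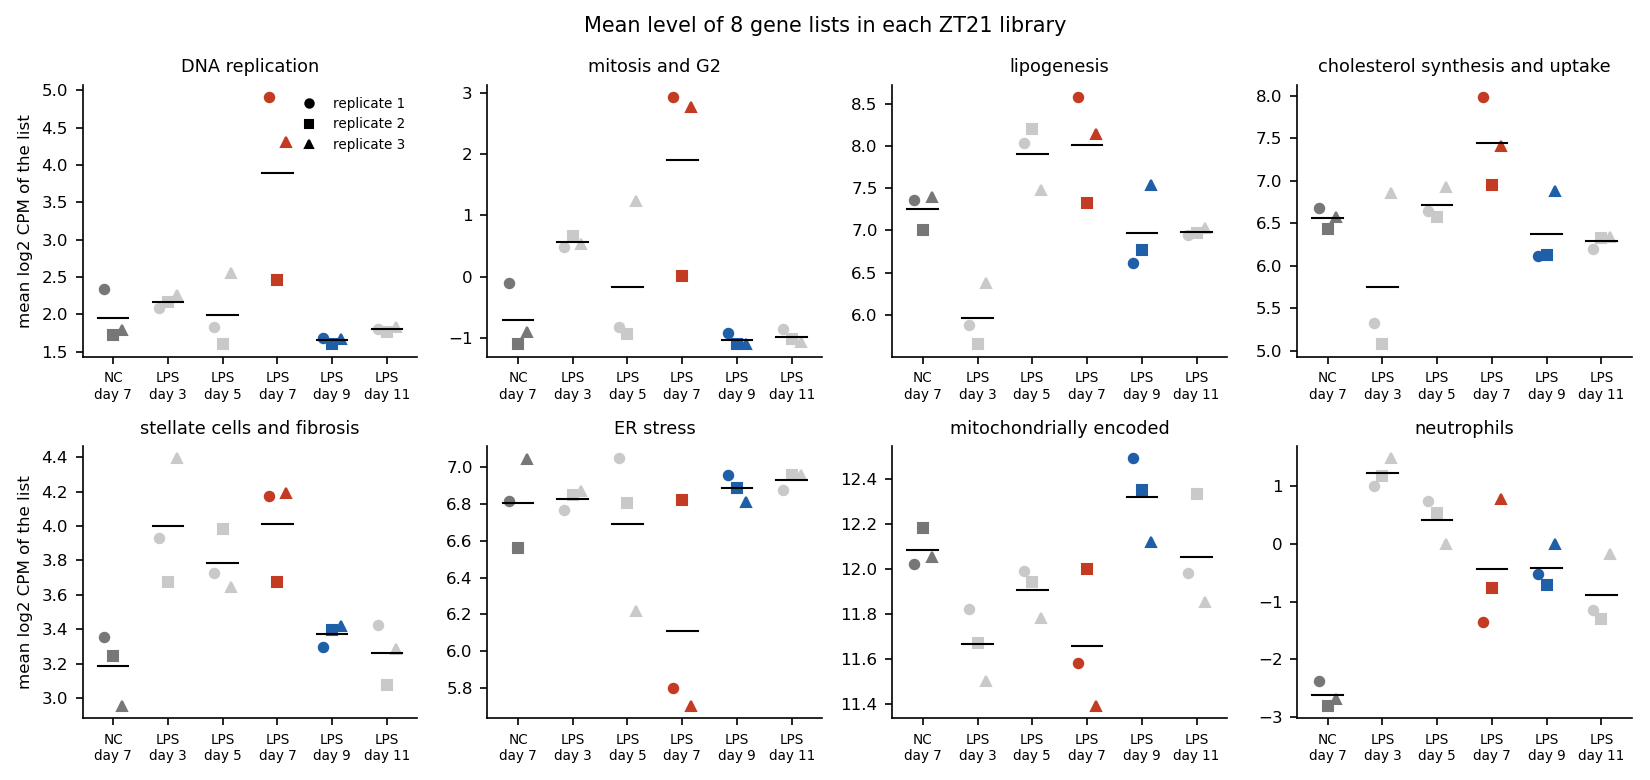
Each panel gives the mean log2 CPM of 1 gene list in the 18 ZT21 libraries by group, with NC dark grey, LPS day 7 red, LPS day 9 blue, the other LPS days light grey, a marker shape for each replicate number and a line at the group mean. In the DNA replication panel day 7 replicates 1 and 3 are at 4.91 and 4.30 and replicate 2 at 2.46, and all day-9 libraries are between 1.60 and 1.68.

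Promoters of 3 of the genes that fell are shown as examples of the motifs counted over the lists after them. The windows are the 250 bases before a start site in the RefSeq promoter table of GRCm38.p6, written 5′ to 3′ along the gene, with capitals for 1 set of motifs in each: E2F sites in Mcm5 and Mcm6, CCAAT boxes and cell cycle homology regions in Top2a. Other motifs, such as the CCAAT boxes of Mcm5 and Mcm6, stand in lower case. An E2F site was searched as TTTGGCGC, TTTGCCGC, TTTCGCGC or TTTCCCGC, the cell cycle homology region as TTTGAA, the CCAAT box as CCAAT, an E-box as CACGTG and a D-box as TTATGTAA, each on both strands, and neighbouring matches can overlap. Mcm5 (chr8:75109259-75109508, plus strand) has matches that start 153 and 149 bases before the start site and overlap, and Mcm6 (chr1:128359706-128359955, minus strand) has matches at 110, 106 and 47, of which the first 2 overlap. Top2a (chr11:99024190-99024439, minus strand) has 6 CCAAT boxes and 2 cell cycle homology regions, on either strand.
Mcm5: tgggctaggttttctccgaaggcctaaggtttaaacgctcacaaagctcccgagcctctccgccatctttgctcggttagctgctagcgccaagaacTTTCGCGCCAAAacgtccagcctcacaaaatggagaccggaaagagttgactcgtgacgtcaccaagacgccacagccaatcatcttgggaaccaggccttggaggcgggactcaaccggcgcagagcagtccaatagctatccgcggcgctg
Mcm6: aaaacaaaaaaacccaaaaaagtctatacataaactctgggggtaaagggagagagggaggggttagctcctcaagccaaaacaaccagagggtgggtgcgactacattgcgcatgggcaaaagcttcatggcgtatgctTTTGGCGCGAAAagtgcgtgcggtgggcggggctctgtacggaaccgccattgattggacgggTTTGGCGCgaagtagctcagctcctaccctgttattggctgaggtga
Top2a: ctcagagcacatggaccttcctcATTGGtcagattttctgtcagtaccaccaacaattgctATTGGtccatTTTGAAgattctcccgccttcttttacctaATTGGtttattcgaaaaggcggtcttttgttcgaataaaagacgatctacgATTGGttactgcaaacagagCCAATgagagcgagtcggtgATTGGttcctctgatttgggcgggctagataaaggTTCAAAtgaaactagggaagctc
An E2F site was in 7 of the 27 replication genes with a promoter in the table (25.9%), against 415 of 11440 tested genes (3.63%). The cell cycle homology region was in 9 of 25 mitosis genes (36%) against 13.6% of tested genes, and a CCAAT box in 21 of 25 (84%) against 40.5%. The CCAAT box was also in 15 of 16 promoters of cholesterol synthesis genes (93.8%), 14 of 20 of lipogenesis genes (70%) and 11 of 16 of core clock genes (68.8%). These are matches of letters and say nothing of whether a factor was bound.

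Mcm5 read 82.1, 7.85 and 46.5 CPM on day 7 and 1.45, 2.01 and 1.89 CPM on day 9 for this subunit of the replicative helicase (chromosome 8, 75109468 to 75128439), and NC read 5.54, 1.52 and 2.63 CPM. All day-9 libraries lay below all day-7 libraries, and the change was -4.67 ± 0.86, adjusted p = 0.0132. Uhrf1 read 63.8, 2.92 and 30.2 CPM on day 7 and 0.378, 0.304 and 0.6 CPM on day 9, and this gene that carries DNA methylation through replication had the largest fitted fall of the named genes with reads in every library (-6.23 ± 1.10, adjusted p = 0.0113). The helicase subunits Mcm3 and Mcm6 fell with a change of -3.35 ± 0.56 and -3.38 ± 0.68, the licensing factor Cdt1 with -3.33 ± 0.58, the DNA ligase Lig1 with -3.71 ± 0.72, and Rrm2, which makes deoxynucleotides, with -3.34 ± 0.54. The chromatin assembly genes Chaf1a (-3.55) and Chaf1b (-3.53), the remodeller Hells (-3.93), the loading factor Cdc45 (-3.49), the polymerase Pola1 (-2.14) and the cyclin Ccne2 (-2.05) fell too. Cdc6 had day-9 values of 0.126, 0 and 0.189 CPM against 12.3, 0.66 and 6.45 CPM on day 7, so its fitted change rests on a handful of reads.

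Mitotic genes followed the same split of the day-7 libraries. Top2a read 24.8, 2.78 and 21.6 CPM on day 7 and 0.819, 0.822 and 1.26 CPM on day 9 for the topoisomerase that untangles chromosomes (chromosome 11, 98992947 to 99024199), with no overlap (-4.08 ± 0.79, adjusted p = 0.0137). Mki67 read 25.03, 2.22 and 23.5 CPM on day 7 and 1.701, 1.34 and 0.757 CPM on day 9 for the proliferation marker, again without overlap (-3.74 ± 0.73, adjusted p = 0.0137). The cyclin Ccnb1 fell with a change of -4.303 ± 0.75. The mitotic kinase Aurkb was at 0, 0.365 and 0.252 CPM on day 9 and the kinesin Cenpe at 0.158, 0 and 0 CPM, which leaves their fitted falls to few reads. Neurl1b, a ubiquitin ligase of Notch signalling, was outside these lists and had the same profile, at 14.9, 1.42 and 11.8 CPM on day 7 and 1.04, 0.761 and 0.978 on day 9 (-3.34 ± 0.77). Against NC none of the cell cycle genes named here passed on day 9, with an adjusted p of 0.31 (Cenpe) or above.

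Histone genes of the replication-dependent clusters did not fall with the replication genes. Of 21 tested, 5 rose and none fell, all 21 had a fitted change above 0, and the median was 0.692. H1f2 read 58.7, 86.2 and 75.4 CPM on day 7 and 138, 144 and 193 CPM on day 9, with day 9 above day 7 in every library (1.11 ± 0.23, adjusted p = 0.0156). H2bc4 read 102, 142 and 108 CPM on day 7 and 184, 176 and 208 CPM on day 9, again without overlap (0.69 ± 0.13). H2bc8 rose by 0.71 ± 0.13 and H2bc6 by 1.55 ± 0.32. Summed CPM of the list was 182.8, 258.4 and 202.8 on day 7, 358, 354.9 and 454.5 on day 9 and 198.5 to 270.1 in NC. By this sum all day-9 libraries lay above every day-7 and NC library. By mean log2 CPM they did not, since day 9 replicate 2 was at 0.08792 and day 7 replicate 2 at 0.08816. Most histone messages carry no poly(A) tail, the libraries were made from poly(A) RNA, and the genes have near-identical copies, so which copy a read came from is uncertain. No member passed without day 7 replicate 1 or 3 or without day 9 replicate 1 or 2, and 4 passed without day 9 replicate 3.

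Part of the genes that build and desaturate fatty acids fell on day 9. Of 25 lipogenesis genes 7 fell and 1 rose, with a median of -1.24, and of 22 genes of polyunsaturated fatty acid synthesis and handling 3 fell and none rose, with a median of -0.33. Fads2 read 2551, 771 and 2613 CPM on day 7 and 448, 503 and 602 CPM on day 9 for the delta-6 desaturase (chromosome 19, 10062765 to 10101503), and NC read 593, 612 and 514 CPM. Day 7 replicates 1 and 3 were high, replicate 2 was near the day-9 libraries but above all of them, and the change was -1.93 ± 0.37, adjusted p = 0.0131. Fads1 read 1235, 509.9 and 1295 CPM on day 7 and 379, 423 and 551 CPM on day 9 for the neighbouring delta-5 desaturase (chromosome 19, 10182877 to 10196874), where day 9 replicate 3 was above day 7 replicate 2, so that the groups overlapped (-1.17 ± 0.31, adjusted p = 0.0366). Elovl6 read 1881, 226 and 1404 CPM on day 7 and 113, 126 and 256 CPM on day 9 for the elongase of saturated fatty acids, and again day 9 replicate 3 overlapped day 7 replicate 2 (-2.83 ± 0.71, adjusted p = 0.035). Acaca, the first committed enzyme of fatty acid synthesis, fell with a change of -1.94 ± 0.48, the desaturase Scd2 with -1.97 ± 0.43, the malic enzyme Me1 with -1.76 ± 0.44 and the acyl-CoA synthetase Acsl5 with -1.03 ± 0.28. The elongases of polyunsaturated fatty acids Elovl2 and Elovl5 had values of -0.47 ± 0.32, adjusted p = 0.389 and -0.79 ± 0.39, adjusted p = 0.232, and Elovl3 read 4.22, 70.8 and 1.23 CPM on day 7 and 162, 143 and 261 CPM on day 9 (2.899 ± 1.59, adjusted p = 0.286). Against NC 1 of the 25 lipogenesis genes passed on day 9, and no lipid gene named in this paragraph did. No member of these lists passed without day 7 replicate 1 or 3 or without day 9 replicate 1 or 2. Without day 7 replicate 2, 12 and 7 fell, and without day 9 replicate 3, 10 and 4. With no filter on low counts 1 and 1 fell. Without day 7 replicates 1 and 3 together Fads2 stood at -0.58, Fads1 at -0.18 and Elovl6 at -0.46.

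**Figure D4:**
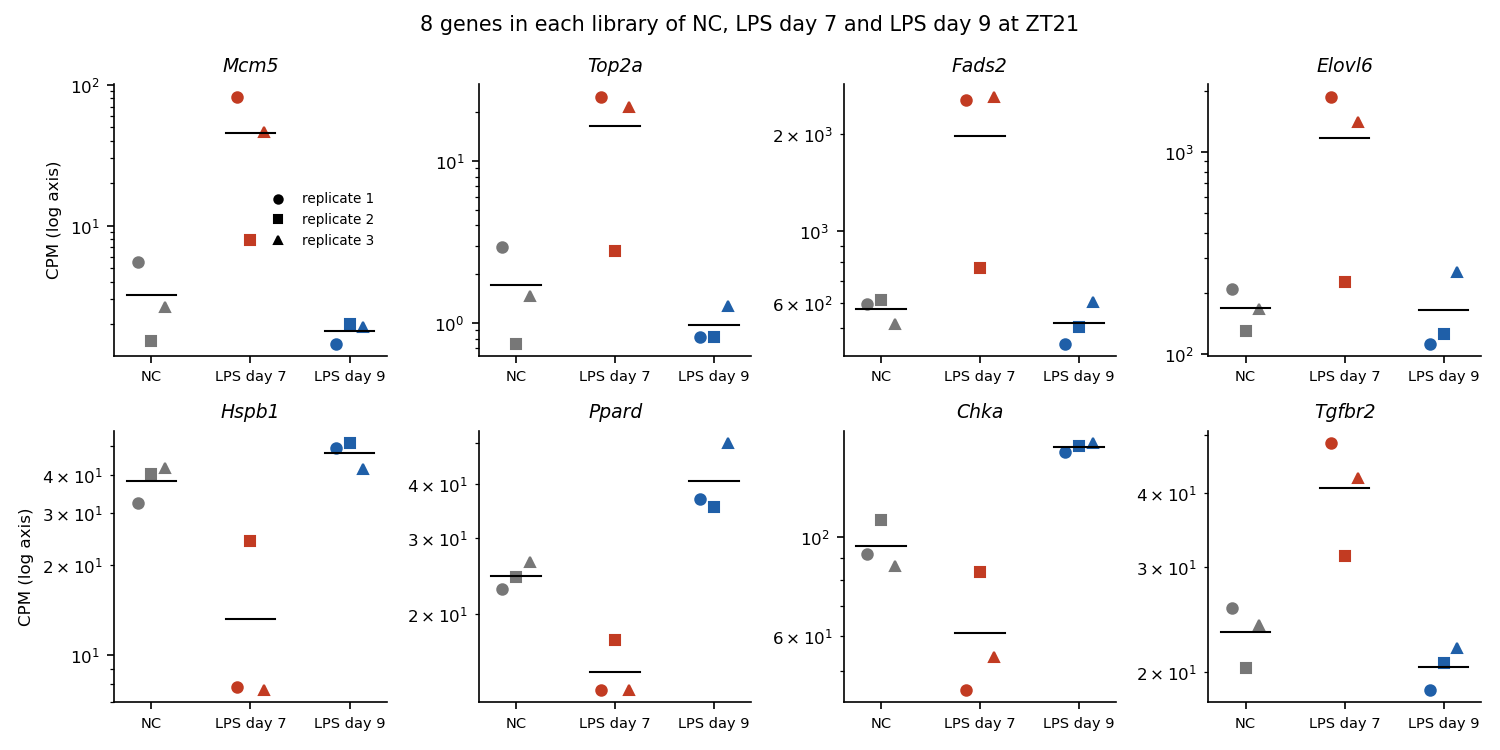
CPM on a log axis for 8 genes in the 3 libraries of NC, LPS day 7 and LPS day 9 at ZT21, with a marker shape for each replicate number and a line at the group mean. In Mcm5, Top2a, Fads2 and Elovl6 day 7 replicate 2 (square) lies nearer to day 9 than replicates 1 and 3 do, and of these 4 genes Elovl6 overlaps between the days. In Tgfbr2 and Ppard the groups do not overlap either.

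Genes of cholesterol synthesis gave few calls. Of 24 tested 2 fell, the median was -1.21 and all 24 had a fitted change below 0. Acat2, a cytosolic thiolase, read 341, 115 and 244 CPM on day 7 and 78.8, 74.8 and 128 CPM on day 9 (-1.32 ± 0.31, adjusted p = 0.0262). Day 7 replicates 1 and 3 were high, and day 9 replicate 3 lay above day 7 replicate 2, so the groups overlapped. Nsdhl (-1.85 ± 0.57, adjusted p = 0.0679) and Tm7sf2 (-0.75 ± 0.24, adjusted p = 0.0698) did not pass. DESeq2 gave 8 falls, the fit of all 48 libraries 12, and the fits without day 7 replicate 2 and without day 9 replicate 3 gave 9 and 4. Without day 7 replicate 1 or 3 or day 9 replicate 1 or 2 it was 0.

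Fatty acid oxidation and ketogenesis held 6 falls and no rise in 38 genes, with a median of -0.349. Ucp2, an uncoupling protein of the inner mitochondrial membrane, read 65.1, 27.5 and 77.3 CPM on day 7 and 23.1, 21.03 and 19.5 CPM on day 9, without overlap (-1.42 ± 0.28, adjusted p = 0.0141). Bdh1, which makes the ketone body beta-hydroxybutyrate, fell with a change of -0.69 ± 0.14, and the reductases Decr1 and Decr2, which help oxidize unsaturated fatty acids, with -0.47 ± 0.11 and -0.78 ± 0.18. The count was 0 without day 7 replicate 1 or 3 or day 9 replicate 1 or 2, 15 without day 7 replicate 2 and 12 by DESeq2. Of 29 genes of gluconeogenesis and amino acid catabolism 0 passed edgeR's test, with 8 at an unadjusted p under 0.05 and 1 called by DESeq2. Over all 16101 tested genes edgeR's test put 3921 at an unadjusted p under 0.05.

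Clock genes moved in both directions between the days. Of 19 core clock genes 3 rose and 5 fell, against 2.64% and 4.09% of all genes. Arntl, the activator known as Bmal1 (chromosome 7, 113178471 to 113314126), read 2.35, 13.4 and 5.47 CPM on day 7, 20.01, 20.9 and 28.5 CPM on day 9 and 19.6, 20.1 and 21.1 CPM in NC. All 3 day-7 libraries lay below all others, with replicate 1 lowest and replicate 2 nearest (1.73 ± 0.40, adjusted p = 0.0241). Its partner Clock rose by 0.71 ± 0.16 and Nfil3, a repressor of D-box genes, by 1.02 ± 0.24. Dbp read 71.4, 11.1 and 41.7 CPM on day 7 and 3.47, 4.51 and 6.22 CPM on day 9 for this output activator of D-box genes (chromosome 7, 45705100 to 45710203), without overlap (-3.13 ± 0.52, adjusted p = 0.00951), and NC read 7.08, 5.12 and 4.32 CPM. Its relative Tef fell with a change of -0.78 ± 0.16, the repressor Nr1d2 with -1.598 ± 0.39 and Per3 with -1.77 ± 0.48.

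Ciart and Per1 were lower on day 9 than in NC. Ciart read 6.26, 3.09 and 3.65 CPM on day 7 and 1.64, 1.16 and 0.726 CPM on day 9, and NC read 6.86, 9.43 and 3.65 CPM, with day 9 below all other libraries of these groups (-1.88 ± 0.51, adjusted p = 0.0397 against day 7 and -2.498 ± 0.52, adjusted p = 0.0464 against NC). Per1 stood at 42.5, 34.5 and 34.1 CPM on day 7 and 23.03, 22.1 and 10.2 CPM on day 9, which did not pass (-1.01 ± 0.34, adjusted p = 0.0925), but against NC, at 70.6, 66.4 and 61.7 CPM, it was lower on day 9 (-1.84 ± 0.35, adjusted p = 0.0341). Ciart, a repressor of Clock and Arntl, holds 3 E-boxes in the 250 bases before its start (chr3:95882229-95882478, minus strand), 116, 58 and 44 bases away, and is shown, with the E-boxes in capitals, because it differed from both groups.
Ciart: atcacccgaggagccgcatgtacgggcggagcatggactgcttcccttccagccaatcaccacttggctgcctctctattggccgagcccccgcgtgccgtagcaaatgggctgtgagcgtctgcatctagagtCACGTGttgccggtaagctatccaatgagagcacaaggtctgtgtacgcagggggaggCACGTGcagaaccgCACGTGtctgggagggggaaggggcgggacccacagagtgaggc
An E-box was in 5 of 16 core clock promoters (31.2%) against 1087 of 11440 (9.5%). Per3 holds 2 D-boxes and was the only 1 of the 16 core clock promoters with this motif (6.25%), against 0.734% of tested promoters.

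Cry1, the repressor in the title of the series (chromosome 10, 85131700 to 85185054), did not pass. Cry1 read 21.9, 29.9 and 22.03 CPM on day 7 and 33.6, 33.6 and 43.5 CPM on day 9, without overlap, and NC read 33.9, 46.6 and 49.8 CPM. Its change was 0.59 ± 0.23, adjusted p = 0.129, and against NC it was lower on day 7 (-0.82 ± 0.23, adjusted p = 0.037) and had -0.23 ± 0.23, adjusted p = 0.797 on day 9. These comparisons share libraries with the first. Nr1d1 just missed (-1.56 ± 0.45, adjusted p = 0.0547), and Per2, Cry2, Bhlhe40, Rora and Hlf had adjusted p values from 0.462 to 0.872. Rora read 2.61, 35.7 and 34.5 CPM on day 7, with replicate 1 alone low. Among 19 clock output genes 5 fell and none rose, with a median of -0.672. Tfrc, the transferrin receptor, read 51.3, 29.2 and 42.8 CPM on day 7 and 16.5, 15.3 and 20.7 CPM on day 9 (-1.24 ± 0.20, adjusted p = 0.00951), and Por, the electron donor of cytochromes P450, fell with a change of -0.95 ± 0.17. St3gal5, a ganglioside synthase, and Coq10b fell with a change of -1.42 ± 0.30 and -0.74 ± 0.15. Of core clock genes 0 passed without day 7 replicate 1 or day 9 replicate 1 or 2, 1 without day 7 replicate 3, 4 without day 9 replicate 3 and 9 without day 7 replicate 2. Arntl, Dbp, Nr1d1, Tef, Cry2, Bhlhe40 and Rora share exons with genes on the opposite strand. Sources used here do not give the strand setting of the counting, so part of the counts of these genes is uncertain.

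Each library was also given a clock time, the hour at which the daily curves of 19 core clock genes, fitted in NC livers of day 7, lay closest to its values. Day-7 LPS libraries read 18.3, 20.8 and 19.7 h, day-9 libraries 22.1, 22.1 and 23.7 h, and NC libraries of ZT21 20.7, 21.5 and 22.6 h. All day-9 libraries read later than all day-7 libraries, by 3.03 h in the mean. The exact two-sided permutation test gave p = 0.1, the smallest that 3 against 3 allows. Relative to the time of collection the mean was 1.63 ± 0.924 h on day 9 and -1.40 ± 1.25 h on day 7 (SD, n = 3), and NC libraries of all times read from -2.2 to 2.5 h. Without Nr1d1 the difference was 4.7 h, and with all clock genes at equal amplitude it was 4.4 h. Day 7 replicate 1 lay farthest from the curves, with a residual of 1.08 on the log2 scale against 0.488 to 0.78 in the other 5.

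**Figure D5:**
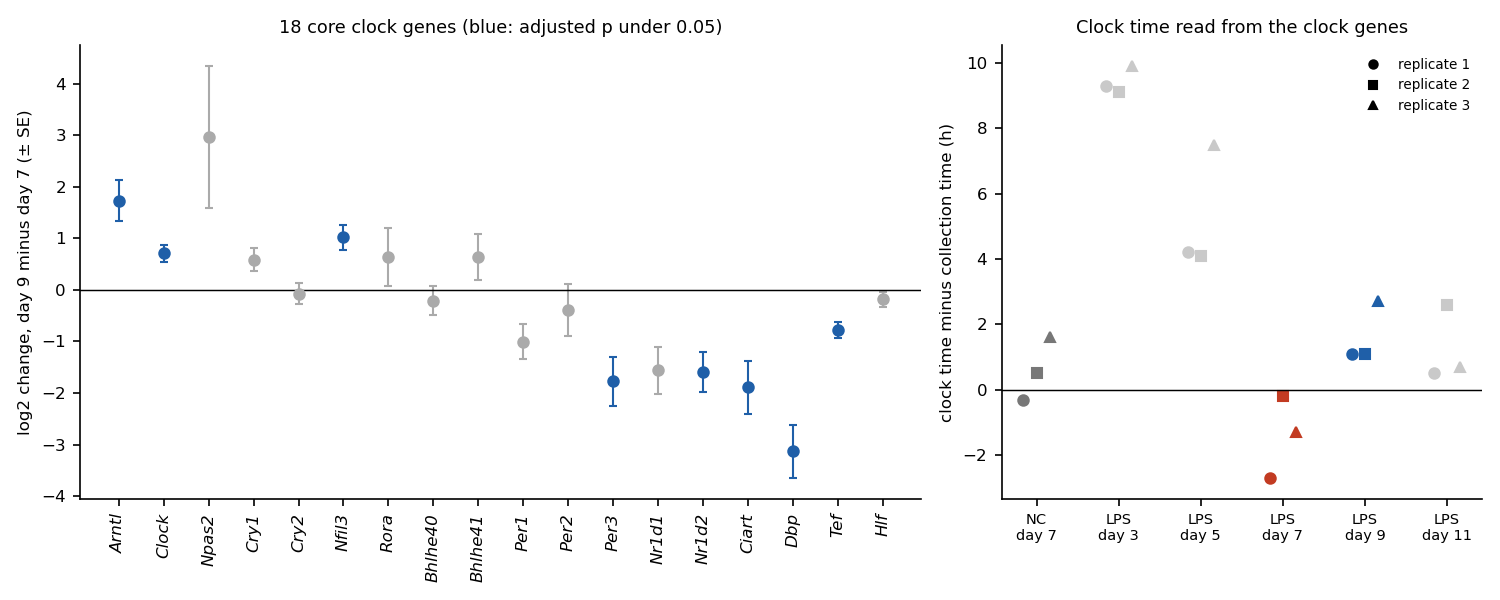
Left, the log2 change from day 7 to day 9 of 18 core clock genes with the standard error derived from the F statistic, blue where the adjusted p was under 0.05. Right, the clock time of each ZT21 library minus 21 h, where the day-9 libraries are at 1.1, 1.1 and 2.7 h and the day-7 LPS libraries at -2.7, -0.2 and -1.3 h.

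Some chaperones and folding enzymes of the endoplasmic reticulum rose. Of 25 ER stress genes 7 rose and none fell, with a median of 0.72. The disulfide isomerase Pdia3 read 224, 476 and 212 CPM on day 7, 591, 553 and 618 CPM on day 9 and 532, 467 and 631 CPM in NC. Day 7 replicates 1 and 3 were low, and replicate 2 was close to the day-9 libraries but below them (0.95 ± 0.25, adjusted p = 0.0322). Pdia6 rose by 0.82 ± 0.23, the co-chaperone Dnajc3 by 0.68 ± 0.19 and the lectin chaperone Canx by 0.48 ± 0.13. Mean log2 CPM of the list was 5.80, 6.82 and 5.70 on day 7 and 6.95, 6.89 and 6.81 on day 9. The count was 0 without day 7 replicate 1 or 3 or day 9 replicate 1 or 2, 1 without day 9 replicate 3, 21 without day 7 replicate 2 and 12 by DESeq2. Among heat shock genes 1 of 15 passed: Hspb1 read 7.81, 24.2 and 7.65 CPM on day 7 and 49.2, 51.1 and 41.8 CPM on day 9 for the small heat shock gene (chromosome 5, 135887919 to 135889563), without overlap (1.85 ± 0.42, adjusted p = 0.024). Its processed copy Hsp25-ps1 rose alike, by 1.98 ± 0.46, and reads of the pair may be split between them.

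Most mitochondrially encoded genes rose. Of the 13 genes 9 passed and all 13 had a fitted change above 0, with a median of 0.671. mt-Nd2 read 6651, 8590.2 and 5939 CPM on day 7 and 13347, 12253 and 10041 CPM on day 9 for a subunit of complex I, with day 9 above day 7 in every library (0.75 ± 0.15, adjusted p = 0.0139). mt-Nd4l rose by 0.78 ± 0.18, and its exon overlaps that of mt-Nd4. The mitochondrial share of counts given above moved with the days, and a share of this kind also changes with RNA quality, whose part was not tested. No member passed without day 7 replicate 1 or 3 or day 9 replicate 1 or 2.

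Few acute-phase and complement genes were called. Of 35 acute-phase genes 4 rose and 1 fell, with a median of 0.0425 and 15 with a fitted change below 0. DESeq2 gave 5 rises and 4 falls there, and the fit without day 7 replicate 2 gave 9 and 6. Of 36 genes of complement and coagulation 1 rose, a share near the 2.64% of all genes, with a median of 0.205. Lbp, which hands LPS to Cd14, read 17.4, 36.9 and 28.4 CPM on day 7, 47.6, 49.7 and 55.4 CPM on day 9 and 65.7, 79.1 and 64.8 CPM in NC, with day 9 above day 7 and below NC in every library (0.89 ± 0.19, adjusted p = 0.0172). The fibrinogen chains Fga and Fgg rose by 0.65 ± 0.16 and 0.71 ± 0.18, the inhibitor chain Itih3 by 0.86 ± 0.16 and complement Hc by 0.497 ± 0.13. Cd14 went the other way, at 5.48, 2.36 and 7.68 CPM on day 7 and 1.95, 1.67 and 2.68 CPM on day 9, where day 9 replicate 3 overlapped day 7 replicate 2 (-1.303 ± 0.38, adjusted p = 0.0481). Among 41 interferon response genes 2 rose, Irf9 (0.61) and Stat2 (0.54), and 2 fell, Gbp3 (-0.72) and the immunoproteasome subunit Psmb8 (-0.42). Over all genes 2.64% rose and 4.09% fell, so these counts lie little above the shares of all genes. Of 21 NF-kB targets 1 fell, also near the 4.09% of all genes. It was the adhesion receptor Vcam1 (-0.995 ± 0.23, adjusted p = 0.0221). Tnfaip2, another target, did not differ beyond the threshold between the days (0.48 ± 0.15, adjusted p = 0.0701) and stood above NC on both, at 49.3, 50.4 and 45.7 CPM on day 9 against 19.5, 16.4 and 21.3 CPM in NC (1.35 ± 0.16, adjusted p = 0.000512). In these lists no member passed without day 7 replicate 1 or 3 or day 9 replicate 1 or 2. Without day 7 replicate 2, 14 complement genes rose, in a fit where 1512 of all 16526 tested genes rose.

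A minority of cytochrome P450, conjugation and transport genes fell on day 9. Of 43 xenobiotic genes 5 fell and none rose, with a median of -0.282, and without day 7 replicate 2 there were 11 falls and 8 rises. Of 39 genes of sex-biased or growth hormone-patterned expression 5 fell and 1 rose, but 28 had a fitted change above 0 and the median was 1.07. Cyp2a4 read 505, 14.7 and 1021 CPM on day 7 and 3.81, 3.56 and 14.6 CPM on day 9, for a steroid hydroxylase that is higher in female liver. Day 7 replicates 1 and 3 were far above every other library and replicate 2 was level with day 9 replicate 3 (-6.13 ± 1.34, adjusted p = 0.0221). Cyp2b13 had 4.603, 0 and 35.3 CPM on day 7 and was at 0 in all 3 day-9 libraries, so it passed with no fold to give. The glutathione transferases Gstm2 and Gstm3 fell with a change of -1.65 ± 0.41 and -2.19 ± 0.55, the drug exporter Abcb1a with -2.55 ± 0.65, and the uptake and export carriers Slco1a4 and Slc51b with -2.002 ± 0.46 and -2.76 ± 0.72. Cyp2c70, which makes muricholic acids in mouse liver, rose by 1.17 ± 0.30, from 265, 799 and 314 CPM to 1039.9, 1019 and 1035 CPM. Osgin1, a target of the oxidant sensor Nrf2, read 181, 348 and 215 CPM on day 7, 796, 764 and 409 CPM on day 9 and 192, 97.9 and 143 CPM in NC, highest on day 9 (1.403 ± 0.32, adjusted p = 0.0213). G6pdx, the entry enzyme of the pentose phosphate path, fell with a change of -2.82 ± 0.68 from 134, 7.403 and 58.4 CPM, and without day 7 replicates 1 and 3 together its sign turned. Cyp2a, Cyp2b, Cyp2c and Gstm genes have close copies, so the split of reads between them is uncertain. No member passed without day 7 replicate 1 or 3 or day 9 replicate 1 or 2. Without day 7 replicate 2 the 39 sex-biased genes gave 25 rises and 10 falls, against 1512 and 1578 among all 16526 genes tested there.

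Part of the matrix genes of stellate cells fell, and lists of other liver cell types gave no or few calls. Of 18 stellate and fibrosis genes 5 fell and none rose, with a median of -0.769, and their summed level was 552.3 to 717.8 CPM on day 7, 438.4 to 466.4 CPM on day 9 and 352.8 to 420.8 CPM in NC. Col3a1 read 109, 75.3 and 131 CPM on day 7 and 52.8, 52.5 and 53.4 CPM on day 9 for a fibrillar collagen, without overlap (-0.99 ± 0.27, adjusted p = 0.0437). The basement membrane collagens Col4a1 and Col4a2, which share a promoter and overlap, fell with a change of -0.84 ± 0.17 and -0.76 ± 0.19, and Lrat, which stores retinol in stellate cells, with -1.04 ± 0.29. The count was 0 without day 7 replicate 1 or 3 or day 9 replicate 1 or 2, 2 without day 9 replicate 3, with no filter, or with all 48 libraries, and 8 without day 7 replicate 2. By edgeR's test 0 members of the lists of Kupffer cells (22 tested), endothelium (14), hepatocytes (14) and erythroid cells (10) passed. DESeq2 called 2, 0, 2 and 0, and 4, 0, 3 and 1 had an unadjusted p under 0.05. Over all 16101 tested genes DESeq2 called 1831, and 3921 had an unadjusted p under 0.05 by edgeR's test. Fitted changes were below 0 in 20 Kupffer and 11 endothelial markers, and above 0 in 11 hepatocyte and 7 erythroid markers. Without day 7 replicate 2, 6 Kupffer markers and 1 endothelial marker fell, and 3 hepatocyte markers and 1 erythroid marker rose. Summed levels were 296 to 457.7 CPM on day 7 and 304.1 to 358 CPM on day 9 for Kupffer cells, and 113900 to 127800 CPM and 125400 to 127200 CPM for hepatocytes. Of 8 cholangiocyte markers 2 rose and none fell, while 6 had a fitted change below 0 that did not pass and the median was -0.489. Krt7 and Spp1, for example, stood at -0.68 ± 0.47, adjusted p = 0.398 and -1.04 ± 0.42, adjusted p = 0.143. The factor Sox9 rose from 4.89, 7.23 and 7.02 to 10.5, 8.22 and 9.66 CPM (0.57 ± 0.16, adjusted p = 0.0428), and on day 9 it was above NC (1.01 ± 0.16, adjusted p = 0.00857).

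Transcripts of some neutrophil markers were still present on day 9. Of 13 tested markers 0 passed between the days by edgeR's test or DESeq2. At an unadjusted p under 0.05 there was 1, against 3921 of all 16101 tested genes by edgeR's test. The summed level of the markers was 12.06 to 35.91 CPM on day 7, 11.32 to 19.66 CPM on day 9 and 6.092 to 8.494 CPM in NC. The granule gene Mpo read 0.44, 0.973 and 6.56 CPM on day 7 and 1.01, 0.426 and 1.36 CPM on day 9. It was at 0 in all 3 NC libraries, as were Camp, Retnlg and Mmp8, which were named after their values were seen. Other markers were not above NC on day 9. Lcn2 had 40 to 113 counts on day 9 and 104 to 159 in NC, Mmp9 7 to 16 and 6 to 19, and Cxcr2 0 to 4 and 0 to 5. S100a8 and S100a9, named after their values were seen, read 1.103, 1.46 and 2.05 and 2.05, 1.49 and 2.49 CPM on day 9 against 0, 0.0931 and 0 and 0.315, 0 and 0 in NC, and both were higher than NC at adjusted p values of 0.0115 and 0.0231. Between day 9 and day 7 their changes were 0.12 ± 0.57, adjusted p = 0.932 and -0.13 ± 0.55, adjusted p = 0.919. Of 3 tested markers of other tissues 0 passed by either tool and 0 were at an unadjusted p under 0.05. The muscle gene Ckm was at 0 in all 9 libraries of day 7, day 9 and NC.

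Several of the largest rises lay outside the lists. Ppard, a nuclear receptor for fatty acids (chromosome 17, 28232754 to 28301469), read 13.3, 17.4 and 13.3 CPM on day 7, 36.95, 35.5 and 49.8 CPM on day 9 and 22.8, 24.4 and 26.4 CPM in NC. All day-9 libraries lay above NC and all day-7 libraries below it (1.47 ± 0.27, adjusted p = 0.0115). Ppp1r3c, which targets a phosphatase to glycogen, read 16.6, 27.7 and 34.3 and 86.7, 77.9 and 68.8 CPM (1.57 ± 0.28, adjusted p = 0.00951), and Paxx, a factor of DNA end joining, 11.04, 22.6 and 16.8 and 45.7, 57.5 and 37.7 CPM (1.49 ± 0.24, adjusted p = 0.00951). In each, day 7 replicate 2 lay with its own group: without day 7 replicates 1 and 3 together the changes were 1.22, 1.49 and 1.05. The ubiquitin ligase Rnf125 rose by 1.58 ± 0.35, the kinase Mapk15 by 1.63 ± 0.35, and Mypop and Fam222a by 1.45 and 1.68. Among the named genes past the threshold Adam1a had the largest rise, 2.13 ± 0.56, at 1.47, 1.01 and 1.69 and 4.54, 9.16 and 4.73 CPM, but it shares exons with Mapkapk5. Atxn1 was high in day 9 replicates 1 and 2 and near day 7 in replicate 3, at 49.9, 52.6 and 17.2 CPM against 12.8, 13.8 and 16.9 CPM (1.46 ± 0.36, adjusted p = 0.0292). C4a, a close copy of the complement gene C4b, rose by 1.45 ± 0.35. Leaving out 1 library kept Ppard between 1.3 and 1.61, Ppp1r3c between 1.33 and 1.82 and Paxx between 1.25 and 1.76, with adjusted p values of at most 0.0728, 0.0584 and 0.0578. They missed the threshold without day 7 replicate 1 or day 9 replicate 1 or 2, and Ppard also without day 7 replicate 3.

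Against NC, fewer genes passed on day 9 than on day 7 in the fit of 18 libraries, and this order depended on the fit. On day 9, 69 of 16101 genes passed (0.429%), 23 higher and 46 lower, and on day 7, 1516 (9.42%), 919 higher (5.71%) and 597 lower (3.71%). These comparisons share their libraries with each other and with the one above, so the values stand side by side and are no separate support. The day-9 count was 22 without NC replicate 2, 15 and 17 without day 9 replicates 1 and 2, and 301 by DESeq2. The day-7 count was 164 and 192 without day 7 replicates 1 and 3, 3435 without replicate 2, 196 and 456 without NC replicates 2 and 3, and 0 with only its 6 libraries in the fit, where 3107 genes had an unadjusted p under 0.05. With only the 6 libraries of day 9 and NC 79 genes passed, so the order of the counts turned, as it did without day 7 replicates 1 and 3 together, with 3 genes for day 7 and 109 for day 9. Median changes against NC on day 7 and day 9 were 2.43 and -0.211 for DNA replication, 3.27 and -0.543 for mitosis, 0.72 and -0.0342 for lipogenesis, and -0.759 and 0.0428 for ER stress. Not all lists came nearer to NC. Medians were -0.609 and -0.519 for gluconeogenesis and amino acid catabolism, 0.719 and 0.703 for cholangiocytes, and 4.34 and 4.22 for the neutrophil markers with their few reads. Clock output genes, at 0.0169 and -0.726, and histone genes, at -0.172 and 0.832, lay farther from NC on day 9. Among the named genes that passed on day 9 were Tnfaip2, Osgin1 (2.19 ± 0.33, adjusted p = 0.0065) and Sox9 on the higher side. On the lower side were Per1, Ciart, Coq10b, Aifm2 (-0.68 ± 0.14, adjusted p = 0.0481), Errfi1, a feedback inhibitor of the EGF receptor, and Arg1, the urea cycle arginase. Errfi1 read 598, 768 and 538 CPM on day 7, 510.3, 501 and 428 CPM on day 9 and 1173, 1171 and 1201 CPM in NC, low on both days (-1.300 ± 0.17, adjusted p = 0.000824 on day 9, -0.404 ± 0.16, adjusted p = 0.138 between the days). Arg1 read 729.8, 717 and 827 CPM on day 9 and 1203, 1591 and 1374 CPM in NC (-0.87 ± 0.12, adjusted p = 0.00255).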

How the data were processed

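Messenger RNA of mouse liver was captured on oligo(dT) beads and made into dUTP strand-marked libraries, read as paired ends on an Illumina NovaSeq, per the labels' protocols. The authors deposited 1 table of raw counts, whole numbers listed by gene symbol. Per the submitters' processing notes the build was GRCm38, and the tools included STAR 2.5.2b, StringTie 2.2.1 and DESeq2 1.38.1, with FastQC 0.11.5 and SAMtools 1.3.1. How reads were counted, by strand or not and on which annotation, was not given in the sources used here. Reads of close gene copies and of overlapping genes thus cannot be apportioned.

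Columns were tied to libraries by the names in the labels. Counts of the 18 libraries at ZT21 (6 groups of 3) were fitted in R 4.3.3 with edgeR 4.0.16 (filterByExpr, TMM scaling, 1 mean per group, robust quasi-likelihood fit, 12 residual degrees of freedom before shrinkage), with Benjamini-Hochberg adjustment over all 16101 tested genes at 0.05. CPM use the TMM-scaled library size, and values of libraries are given in the order of replicates 1, 2 and 3. The standard error of a log2 change is its absolute value over the square root of the F statistic of its test. The fit was tested on simulated counts before use. These had the same spread in every group, so they cannot show how the fit behaves where day 7 varies more than the other groups. Precision is set by 3 libraries a group and by 29.9 to 36.4 M counts in each of the 6 libraries compared.

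The comparison and the gene lists were chosen with earlier results of these data known. Named genes were the 15 largest rises and falls past the threshold (mean log2 CPM of at least 1, no overlap between the groups, no predicted models, topped up by smallest p where fewer passed), all core clock genes, up to 4 genes of each other list by smallest p (2 for mitochondrial and other-tissue genes), and Fads1, Fads2, Cry1 and Elovl genes, and others are named as chosen later. A few genes that the rule names are not reported here. Positions and promoters came from RefSeq tables of GRCm38.p6 by symbol, with 187 of 189 named genes found, and exon overlaps from GENCODE vM21. Alternatives were DESeq2 1.42.0, RLE scaling, no filter, a replicate block, other sets of libraries in the fit, single libraries left out, and clock genes left out or at equal amplitude. Figures were drawn with matplotlib 3.10.9.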

Additional observations from a re-analysis of the deposited data

How the results depend on the processing

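RLE scaling (1095, 1516 and 71 calls for day 9 against day 7, day 7 against NC and day 9 against NC), no filter on low counts (756, 1133 and 56) and the replicate block (1229, 1670 and 56) gave counts within 1.5 times of those reported, and 998 of the 1084 genes were shared under the block. Nothing in the labels ties equal replicate numbers to 1 animal or day. Same-numbered libraries of LPS day 7 and day 9 had correlations of -0.0475, 0.0271 and 0.0212 in their deviations from the group means. With same-numbered NC libraries the correlations were all positive, at 0.0645, 0.096 and 0.00334 for LPS day 7 and 0.091, 0.0119 and 0.103 for day 9. Not every library correlated best with its own number, and the numbers were not taken as pairs. DESeq2 called 1831, 2291 and 301. With only the 6 libraries compared the counts were 0, 0 and 79 (2813 and 3107 at an unadjusted p under 0.05 for the first pair), and with all 48 libraries the count for day 9 against NC was 37. Single libraries left out gave 1 to 3090, 164 to 3435 and 15 to 91. Without day 7 replicates 1 and 3 together, where the lone day-7 library is assumed to vary like the other groups, they were 1, 3 and 109, and with day 9 replicates 1 and 2 summed 1 (day 9 against day 7) and 17 (day 9 against NC). Without day 7 replicates 1 and 3, Me1 turned to 0.0126, G6pdx to 0.353 and Cyp2b13, then at 0 counts in all libraries compared, to 0. The difference in clock time of 3.03 h was 4.7 h without Nr1d1, 4.4 h at equal amplitudes and 2.38 to 3.63 h without single libraries, with p = 0.2 by the exact permutation test without day 9 replicate 3. Causes were not tested. Depth limits the fitted changes of genes near 0 counts on day 9, such as Cdc6 and Cenpe.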
